A study of Mus musculus with 12 samples.

Results

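The genes of potassium, sodium, calcium and pacemaker channels were examined in a map of histone H3 trimethylated at lysine 4 (H3K4me3), a mark found around the starts of active genes. Chromatin carrying the mark had been precipitated with an antibody and sequenced (ChIP–seq) from the nuclei of cardiomyocytes (CMs), the contracting cells of the heart, taken from adult mice. Members were chosen by gene symbol alone, as the autosomal peaks of protein-coding genes whose symbol starts with Kcn, Cacna, Cacnb, Cacng, or with Scn or Hcn and a digit. The rule gave 65 peaks of 65 genes among 15848 peaks. The GENCODE vM21 annotation of GRCm38 holds 135 autosomal coding genes of these names, so 70 had no peak under their name in the table used here. Of these 70, only Kcnk2 had an annotated start inside a peak, which had been assigned to an antisense noncoding gene there.

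The comparison was between 3 ChIP libraries of CtrlCre and 3 of Cpt1bcKO mice. CtrlCre mice were αMHC-Cre pos/+; Cpt1b +/+ and Cpt1bcKO mice were αMHC-Cre pos/+; Cpt1b fl/fl, so both genotypes carry the Cre recombinase under the αMHC promoter, which is active in heart muscle from embryonic stages on. Cpt1b encodes the carnitine palmitoyltransferase of muscle, which lets fatty acids enter mitochondria to be burnt, and its exons 10 and 11 are removed by Cre. Mice were adult C57BL/6 littermates, and nuclei positive for PCM1, a protein of the CM nuclear envelope, were sorted from ventricles. The comparison asks where the mark at channel genes differs once CMs lack this enzyme.

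Channels set the heartbeat. Sodium channels carry the fast upstroke of the action potential, L-type calcium channels carry its plateau and trigger contraction, potassium channels repolarize the cell and hold its resting potential, and HCN and T-type calcium channels drive the spontaneous beating of pacemaker cells. Many other members of these families work mainly in neurons, smooth muscle or immune cells. Wide H3K4me3 domains that run from the start into the gene body are known for genes that define a cell type.

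Values are normalized counts of reads in a peak, which are relative to the other peaks, so a gain or loss of the mark shared by all peaks is not visible. Fewer nuclei with the mark and less of it per nucleus cannot be told apart. The counts in peaks recovered from the table ranged from 763133 in CtrlCre replicate 2 to 2766416 in Cpt1bcKO replicate 2. All 10 CM marker genes had a tested peak, with summed values of 8193 to 9860 in CtrlCre and 6072 to 8901 in Cpt1bcKO, the lowest in Cpt1bcKO replicate 3. Of 17 markers of endothelial, stromal, immune, mural, glial and mesothelial cells, 3 had a tested peak (Kdr, Pdgfra and Myh11, summed 126 to 163 in CtrlCre and 105 to 129 in Cpt1bcKO) and 14 had none, among them Pecam1, Cdh5, Col1a1 and Ptprc. At Cpt1b itself the mark was higher in Cpt1bcKO (424 ± 15.0 against 610 ± 68.7, SD, n = 3 each; log2 difference 0.52, limma adjusted p = 0.00357), and the peak covers the start of the gene but ends before the deleted exons, so it does not check the labels.

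The promoters of the 5 channel genes that passed the test below are shown first, with that of Kcnd2, the densest channel peak, beside them. They show how different the starts of these genes are in their content of CpG, the dinucleotide that DNA methylation acts on. All are RefSeq promoters on GRCm38.p6, printed 5′ to 3′ in the sense of the gene, from 250 bases before to 50 after the RefSeq start, and all lie inside the peak of their gene. Scn4b is at chr9:45138374-45138673 on the plus strand, Hcn4 at chr9:58822699-58822998 on the plus strand, Kcnj5 at chr9:32344295-32344594 on the minus strand, Cacnb2 at chr2:14604056-14604355 on the plus strand, Kcnq5 at chr1:21961893-21962192 on the minus strand and Kcnd2 at chr6:21215096-21215395 on the plus strand. Capitals mark CpG.
Scn4b: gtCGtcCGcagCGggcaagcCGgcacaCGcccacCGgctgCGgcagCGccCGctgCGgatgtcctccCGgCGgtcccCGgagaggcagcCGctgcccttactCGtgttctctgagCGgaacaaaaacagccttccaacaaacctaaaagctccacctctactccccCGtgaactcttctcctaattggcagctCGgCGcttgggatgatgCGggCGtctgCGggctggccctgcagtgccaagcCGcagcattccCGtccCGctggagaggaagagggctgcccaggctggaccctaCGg
Hcn4: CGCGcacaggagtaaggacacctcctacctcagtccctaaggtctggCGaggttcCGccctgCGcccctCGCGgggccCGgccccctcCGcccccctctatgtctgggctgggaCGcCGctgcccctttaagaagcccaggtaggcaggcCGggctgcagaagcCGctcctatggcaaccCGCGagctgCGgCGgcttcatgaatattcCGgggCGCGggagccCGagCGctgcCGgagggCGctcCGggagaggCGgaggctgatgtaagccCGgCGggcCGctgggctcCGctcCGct
Kcnj5: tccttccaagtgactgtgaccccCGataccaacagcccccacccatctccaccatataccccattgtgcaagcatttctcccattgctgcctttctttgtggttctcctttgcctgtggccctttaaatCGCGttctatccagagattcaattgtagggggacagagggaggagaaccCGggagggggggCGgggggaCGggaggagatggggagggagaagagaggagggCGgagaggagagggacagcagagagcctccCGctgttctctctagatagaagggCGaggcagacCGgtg
Cacnb2: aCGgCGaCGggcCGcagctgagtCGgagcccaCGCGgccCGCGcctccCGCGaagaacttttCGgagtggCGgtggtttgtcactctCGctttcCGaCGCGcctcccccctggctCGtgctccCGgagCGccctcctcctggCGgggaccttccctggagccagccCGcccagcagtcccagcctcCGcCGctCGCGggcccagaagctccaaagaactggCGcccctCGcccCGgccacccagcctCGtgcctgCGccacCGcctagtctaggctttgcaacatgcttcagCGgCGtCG
Kcnq5: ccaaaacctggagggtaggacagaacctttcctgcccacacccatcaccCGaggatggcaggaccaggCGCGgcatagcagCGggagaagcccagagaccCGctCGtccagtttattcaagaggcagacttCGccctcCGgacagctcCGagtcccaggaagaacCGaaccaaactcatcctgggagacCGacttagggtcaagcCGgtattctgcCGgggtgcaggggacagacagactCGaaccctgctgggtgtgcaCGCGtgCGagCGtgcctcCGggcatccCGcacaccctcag
Kcnd2: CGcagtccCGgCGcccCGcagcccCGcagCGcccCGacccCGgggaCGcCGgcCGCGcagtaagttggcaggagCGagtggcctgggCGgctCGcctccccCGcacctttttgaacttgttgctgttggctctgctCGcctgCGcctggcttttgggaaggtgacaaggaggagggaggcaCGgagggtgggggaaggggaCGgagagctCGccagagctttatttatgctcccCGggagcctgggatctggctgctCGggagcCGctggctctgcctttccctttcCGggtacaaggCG
Cacnb2 had 35 CpGs in its 300 bases, Hcn4 31, Scn4b and Kcnd2 26 each, Kcnq5 20 and Kcnj5 10. The Kcnj5 promoter was also the poorest in C and G of these 6, at 58.3%, against 71.7% for Hcn4 and Cacnb2. Of the 65 genes, 44 were in the promoter table, and 34 had a promoter with its start inside their peak, 35 promoters in all. Their median was 26 CpGs, against 9 over the 135 promoters of 99 channel genes in the promoter table and 7 over all 32851 promoters. The 35 were picked for a start inside a peak and the larger sets were not, so the contrast is not one of channel genes as such. Of the motifs searched on both strands, TATAAA was in none of the 35 (13.6% of all promoters hold it), AGATAA, of the kind that GATA factors bind, in none (11.2% of all), and CTAAAAATA, a MEF2-like motif, in none (0.517% of all). CATTCC, a TEAD-like motif, was in 4 of 35, or 11.4%, against 14.7% of all promoters, and among the 6 printed sequences it occurred in Scn4b alone, beginning 1 base before the start. CAGCACC, a part of the REST element, was in 1 of 35, or 2.86%, against 7.14% of all. Of the 135 promoters of channel genes, 5.19% held TATAAA, 3.70% AGATAA, 0.741% CTAAAAATA, 17.0% CATTCC and 7.41% CAGCACC. These are matches of letters only, and the motifs do not overlap each other in the printed sequences.

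Levels were compared per kb of peak. The densest channel peak was that of Kcnd2, a pore subunit of the fast transient outward potassium current, at 92.0 normalized counts per kb over the 6 libraries, followed by that of Kcnip2, the subunit that brings this channel to the membrane, at 90.9. Next came Cacna1c, the pore of the cardiac L-type calcium channel, at 88.3, Kcng2, a silent potassium channel subunit that only works with a partner, at 85.9, and Cacnb2, the L-type β subunit, at 85.4. Kcnn2, a calcium-activated potassium channel, had 78.2, Kcnq1, the pore of the slow delayed rectifier, 77.4, Kcnj2, the main inward rectifier that holds the resting potential, 74.8, Kcnj3, a subunit of the acetylcholine-activated channel, 73.4, and Cacnb1, the β subunit of skeletal muscle, 71.2. Of these 10, all but Kcng2 are on the list of ventricular and atrial channels, which was chosen with earlier results of these data known. Near the low end stood the neuronal gene Kcna6 at 11.5 per kb.

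Among the widest channel peaks was that of Kcnk3, a background potassium channel, at 7299 bases. It lies at chr5:30587395-30594694 and runs from 775 bases before the start to 6524 bases into the gene, and 83.5% of it is intron. Kcng2 had 5818 bases, Kcnj2 5687 and Cacna1c 5068. Kcnk3 was wide but not dense, at 37.1 per kb, whereas Kcng2, Kcnj2 and Cacna1c were also among the 10 densest. Of the 65 peaks, 50 lay mostly downstream of the start and 49 contained the start given in the table. The plot of peak extents shows Kcnd2 reaching farther upstream than downstream, the reverse of Kcnk3.

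**Figure D1:**
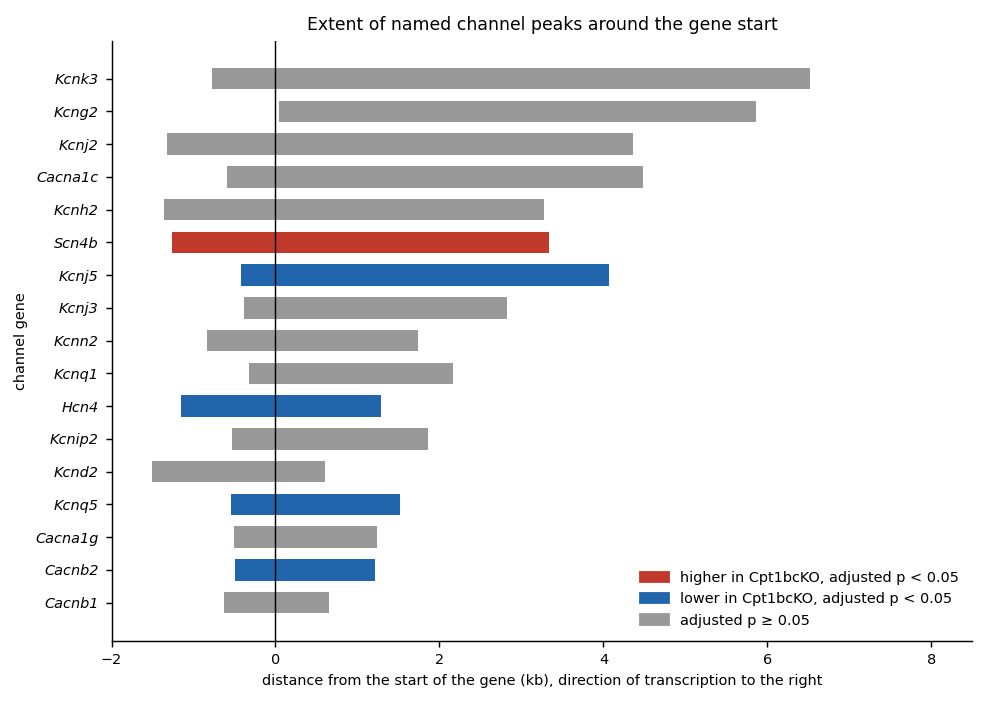
Extent of named channel peaks around the start of the gene, in kb, with transcription to the right. Bars span the peak and are coloured by the genotype test. Kcnk3 reaches 6524 bases into the gene, and the 5 coloured bars are Scn4b, Kcnj5, Hcn4, Kcnq5 and Cacnb2.

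A broad peak was one wider than 2222 bases, the 75th percentile of all tested peaks, and a narrow one was under 1030 bases, the 25th percentile. Of the 61 channel peaks with a mean of at least 10, which were tested, 22 or 36.1% were broad, against 25% of all tested peaks, and 14 or 23.0% were narrow. Width and level were then set out by lists drawn up roughly by the tissue in which a channel is best known, with no test between lists. These lists were chosen with earlier results of these data known, so the widths and levels are no independent check of the grouping. The ventricular and atrial list also holds Cacnb1, the β subunit of skeletal muscle. In the list of ventricular and atrial channels 26 of 41 genes had a tested peak, 16 of them broad, with a median of 47.0 per kb. In the list of neuronal channels 19 of 52 had one, 2 of them broad, with a median of 25.8 per kb. The pacemaker and T-type list had 5 of 8 with a median of 38.9 per kb, and that of vessel, fibroblast and immune channels 5 of 11, none broad, with a median of 26.4 per kb. Kcnj8 and Kcne3 stand both on that list and on the ventricular and atrial one. Over all 61 the median was 33.7 per kb, and over all tested peaks it was 60.5.

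Broad and other channel peaks also differed in sequence. The CpG observed/expected ratio, which is 1 where CpG is as frequent as C and G content predicts, had a median of 0.42 in the 22 broad channel peaks and 0.77 in the other 39, while over all broad peaks it was 0.60. The strongest neuronal peaks were those of Kcnn1, a calcium-activated channel (175 normalized counts, mean of 6 libraries), and Kcnq5 (69.7). Those of the vessel, fibroblast and immune list were Kcnma1, the large-conductance calcium-activated channel of smooth muscle (32.7), Kcnk6 (30.7) and Kcna3, the potassium channel of lymphocytes (29.8). The Kcnn1 peak also contains the start of the noncoding gene A230052G05Rik, and 84.2% of it lies outside Kcnn1.

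**Figure D2:**
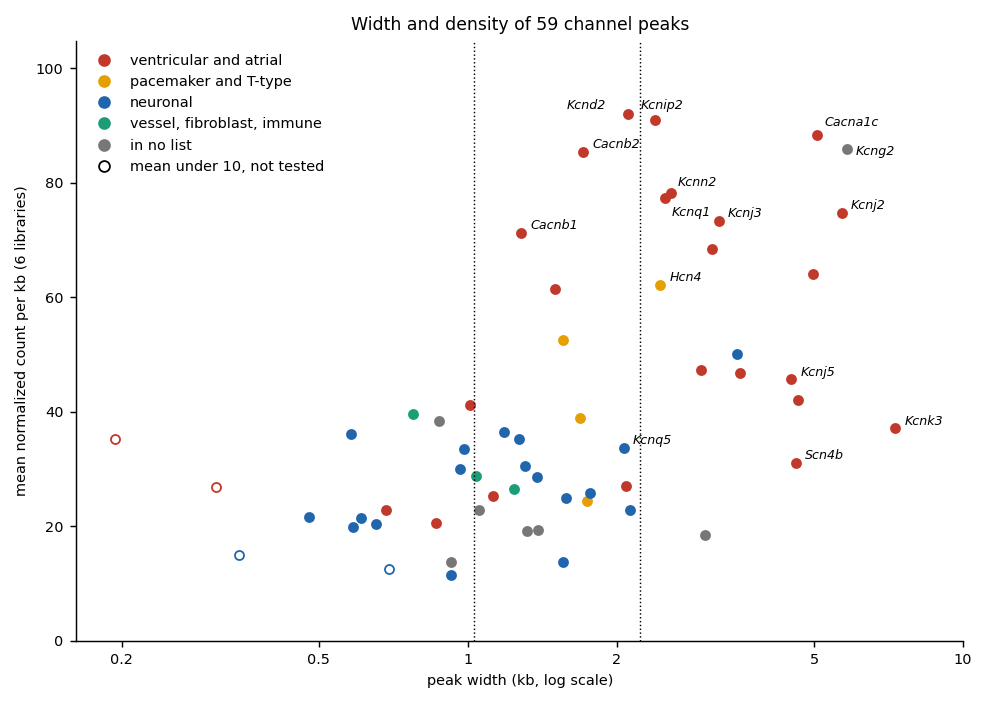
Width of 59 of the 65 channel peaks (kb, log axis) against the mean normalized count per kb over 6 libraries, coloured by gene list, with open points for the 4 that were not tested; a gene in 2 lists takes the colour of the first. Dotted lines mark 1030 and 2222 bases. The ventricular and atrial channels fill the upper right, and the neuronal channels mostly lie below 40 per kb.

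Before the genotype comparison, library differences are given, since they touch the channel peaks. Among the 30 tested channel peaks with a mean under 50, Cpt1bcKO replicate 3 was the highest of its genotype in 25, or 83.3%, against 44.2% of all 4422 tested peaks at this level. Its median deviation from the mean of the 6 libraries was 0.58 (log2) in these channel peaks and 0.07 in all peaks at this level. Of the 26 weak channel peaks with a CpG ratio of at least 0.6 it was the highest in 22, or 84.6%, and of all weak peaks with such a ratio in 63.1%. Among the 31 channel peaks with a mean of at least 50 it was the highest in 17, or 54.8%, against 29.3% of all peaks at this level, though its median deviation there was -0.04. CtrlCre replicate 2, the shallowest library, was the highest control in 15 of the 30 weak peaks (50.0%) and 16 of the 31 others (51.6%), against 38.5% and 36.7% of all peaks. The part of these libraries in the results was not tested, and the count of channel peaks that passed is also given without them.

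**Figure D3:**
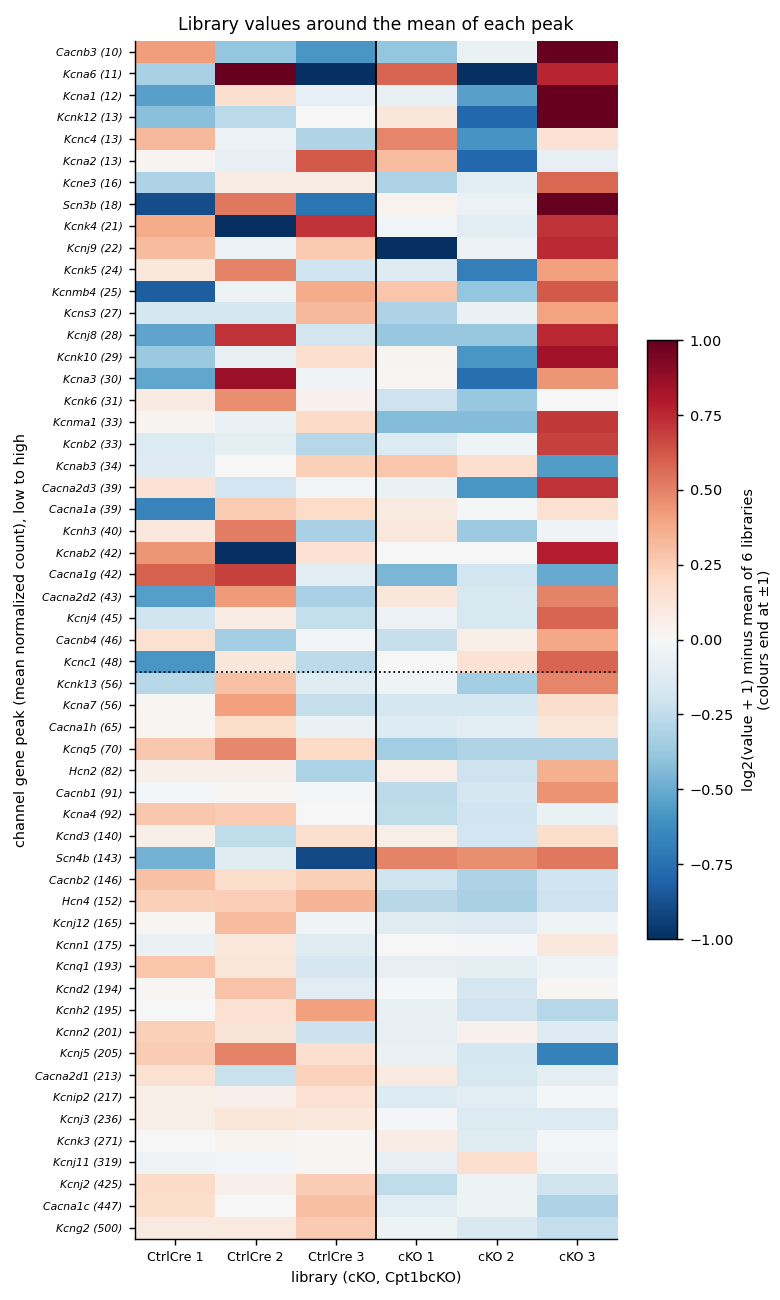
Each row is 1 of 55 tested channel peaks, ordered by its mean normalized count (in parentheses), and each column a library. Colour gives log2(value + 1) minus the mean of the 6 libraries, and the dotted line marks a mean of 50. Above that line, in the weak peaks, Cpt1bcKO replicate 3 is mostly red, and Scn4b is red in all 3 Cpt1bcKO libraries.

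The mark at 5 channel peaks differed between genotypes. The mark rose at Scn4b in Cpt1bcKO and fell at Hcn4, Kcnj5, Cacnb2 and Kcnq5. These 5 are 8.20% of the 61 tested channel peaks, where 2.93% of all 15039 tested peaks passed (limma, adjusted p under 0.05). At an unadjusted p under 0.05, 11 channel peaks (18.0%) were lower and 3 (4.92%) were higher, against 6.98% and 5.84% of all tested peaks, so the share of higher peaks was close to that of all peaks. In 15 of the 61 (24.6%), 14 lower and 1 higher, the values of the genotypes did not overlap, against 16.3% of all tested peaks. The median log2 difference was -0.05 over the channel peaks and 0.01 over all tested peaks. Without CtrlCre replicate 2 and Cpt1bcKO replicate 3, 2 of the 5 (Scn4b and Hcn4) still passed, and the unadjusted test gave 11 lower. With limma's variance prior held constant over signal levels (eBayes without a trend) none of the 5 passed, with 12 channel peaks lower and 1 higher by the unadjusted test. Without Cpt1bcKO replicate 3 alone 2 passed as well, and without CtrlCre replicate 1, Cpt1bcKO replicate 1 or Cpt1bcKO replicate 2 it was 3.

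Scn4b encodes the β4 subunit, a small membrane protein that binds the sodium channel pore and modulates its gating. Its peak (ENSMUSG00000046480, chr9:45137129-45141730, 4601 bases, 57.1% intron) had 96, 123 and 71 normalized counts in CtrlCre replicates 1 to 3 and 189, 185 and 193 in Cpt1bcKO. All Cpt1bcKO values lay above all controls, which varied more among themselves. The means were 96.7 ± 26.0 and 189 ± 4.0 (SD, n = 3 each), a log2 difference of 0.99 (SE 0.15, limma adjusted p = 0.000226). Without CtrlCre replicate 3, the lowest control, the difference was 0.79 and still passed. The nearest other peak, that of Mpzl3 and the only one within 100 kb, had 74, 105 and 89 in CtrlCre and 119, 131 and 101 in Cpt1bcKO, values that overlap (log2 difference 0.39, limma adjusted p = 0.223).

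Scn3b, the β3 subunit of the same channel, was weak, at 8, 23 and 9 in CtrlCre and 16, 15 and 35 in Cpt1bcKO. The genotypes overlapped, and the 95% interval of the log2 difference, -0.21 to 1.67, leaves its direction undetermined.

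Hcn4 encodes the main channel of the pacemaker current. Its peak (ENSMUSG00000032338, chr9:58822257-58824703, 2446 bases, 32.1% coding sequence) had 176, 177 and 189 in CtrlCre and 123, 119 and 129 in Cpt1bcKO. The replicates of each genotype lay close together and far from the other genotype. The means were 181 ± 7.23 and 124 ± 5.03 (SD, n = 3 each), a log2 difference of -0.54 (SE 0.11, limma adjusted p = 0.00474). The call held without any single library, with differences from -0.57 to -0.51, and no other peak lay within 100 kb.

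Other pacemaker and T-type genes were read beside it. Cacna1g, a pore of the T-type calcium current, had 61, 65 and 37 in CtrlCre and 29, 35 and 28 in Cpt1bcKO, which do not overlap, with a log2 difference of -0.77 (SE 0.25, unadjusted p = 0.00585 in limma, adjusted p = 0.124). Cacna1h, the other T-type pore with a peak, had 66, 74 and 62 against 59, 60 and 71, a difference of -0.09 (95% interval -0.45 to 0.27). The T-type genes thus had different values, but the difference between them was not tested. Hcn2 had 84, 84 and 65 against 85, 70 and 104, a difference of 0.14 (95% interval -0.21 to 0.50). Of the 5 genes of this list, 1 fell by the adjusted test, which 2.93% of all tested peaks passed, and the median difference was -0.54.

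Kcnj5 encodes a subunit of the acetylcholine-activated potassium channel through which the vagus slows the heart. Its peak (ENSMUSG00000032034, chr9:32340277-32344773, 4496 bases, 78.4% intron) had 238, 281 and 223 in CtrlCre and 190, 176 and 124 in Cpt1bcKO. The genotypes did not overlap, and Cpt1bcKO replicate 3 was the lowest of all. The means were 247 ± 30.1 and 163 ± 34.8 (SD, n = 3 each), a log2 difference of -0.61 (SE 0.13, limma adjusted p = 0.00946). Without Cpt1bcKO replicate 3 the difference was -0.43 and the adjusted p 0.0893, so the call rests on that library. Without CtrlCre replicate 2 as well, the difference was -0.33 and the adjusted p 0.249.

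Kcnj3, the partner of Kcnj5 in that channel, had 245, 256 and 253 in CtrlCre and 232, 214 and 213 in Cpt1bcKO. These did not overlap, and the log2 difference was -0.19 (SE 0.10, limma adjusted p = 0.402). Kcnj2 had 482, 437 and 504 against 354, 407 and 367, again without overlap (log2 difference -0.33, SE 0.10, limma adjusted p = 0.0674). Kcnj12, the other inward rectifier of the resting potential, had 166, 205 and 160 against 151, 150 and 160. The genotypes met at 160, and the difference was -0.19 (95% interval -0.43 to 0.04). Kcnj11, the pore of the ATP-sensitive channel, had 311, 312 and 323 against 301, 358 and 311, a difference of 0.03 (95% interval -0.17 to 0.23). Kcnj8, its vascular relative, was weak and overlapped throughout. Of the 8 inward rectifier peaks tested, 6 had a negative difference, 2 of them with an unadjusted p under 0.05. Of all 15039 tested peaks, 7337 had a negative difference and 6.98% were lower by the unadjusted test.

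A weak peak inside the Kcnj2 gene, without an assigned gene and named after its values were seen, also fell. It lies at chr11:111072943-111073680, from 6779 to 7516 bases after the start, entirely in exon sequence. Its values were 21, 9 and 28 in CtrlCre and 1, 8 and 0 in Cpt1bcKO, a log2 difference of -2.82 (SE 0.75, limma adjusted p = 0.0395). The values of 1 and 0 lie under the floor of 3 counts, so this difference depends on the pseudocount and is no measure of size.

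Cacnb2 encodes the β subunit that brings the L-type calcium channel to the membrane. Its peak (ENSMUSG00000057914, chr2:14603814-14605524, 1710 bases) had 177, 163 and 170 in CtrlCre and 125, 116 and 125 in Cpt1bcKO, with both groups tight and apart. The means were 170 ± 7.0 and 122 ± 5.20 (SD, n = 3 each), a log2 difference of -0.48 (SE 0.11, limma adjusted p = 0.0159). Leaving out CtrlCre replicate 1 or 3 or any Cpt1bcKO library kept the direction but gave an adjusted p of 0.0504 to 0.101. The peak contains the start of the noncoding gene Gm10849 as well, and reads cannot be split between the pair.

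Other peaks lie within the long Cacnb2 gene and carried no gene name; they were also named after their values were seen. The one from 218151 to 225435 bases after the start covers another annotated start of Cacnb2 and is 7284 bases wide. It had 322, 256 and 363 in CtrlCre and 246, 306 and 199 in Cpt1bcKO, which overlap (log2 difference -0.33, SE 0.13, limma adjusted p = 0.266). The one farther downstream, at chr2:14832397-14834927 and wholly in intron, had 95, 70 and 113 against 67, 63 and 52, without overlap (log2 difference -0.58, SE 0.18, limma adjusted p = 0.0991).

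Cacna1c, whose product forms the L-type pore, had 501, 442 and 547 in CtrlCre and 409, 427 and 358 in Cpt1bcKO. The values did not overlap, and the log2 difference was -0.32 (SE 0.10, limma adjusted p = 0.121). This peak also contains the start of Dcp1b, a gene of mRNA decapping. Cacna2d1, an auxiliary subunit of the same channel, had 236, 181 and 249 against 226, 190 and 198, a difference of -0.11 (95% interval -0.35 to 0.14). Cacnb1 had 89, 91 and 89 against 75, 80 and 123, where Cpt1bcKO replicate 3 alone lay above the controls (log2 difference 0.01, and -0.21 without that library).

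Kcnq5 encodes a channel of the M-current, known best from neurons. Its peak (ENSMUSG00000028033, chr1:21960418-21962485, 2067 bases) had 82, 95 and 78 in CtrlCre and 53, 55 and 55 in Cpt1bcKO, which lay well apart. The means were 85.0 ± 8.89 and 54.3 ± 1.15 (SD, n = 3 each), a log2 difference of -0.63 (SE 0.17, limma adjusted p = 0.0397). Of the 5 this was the call nearest the threshold, and leaving out any single library gave an adjusted p of 0.0695 to 0.137 with the direction kept. The adjusted p was 0.0512 under quantile normalization and 0.0670 with the replicate number as a block.

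**Figure D4:**
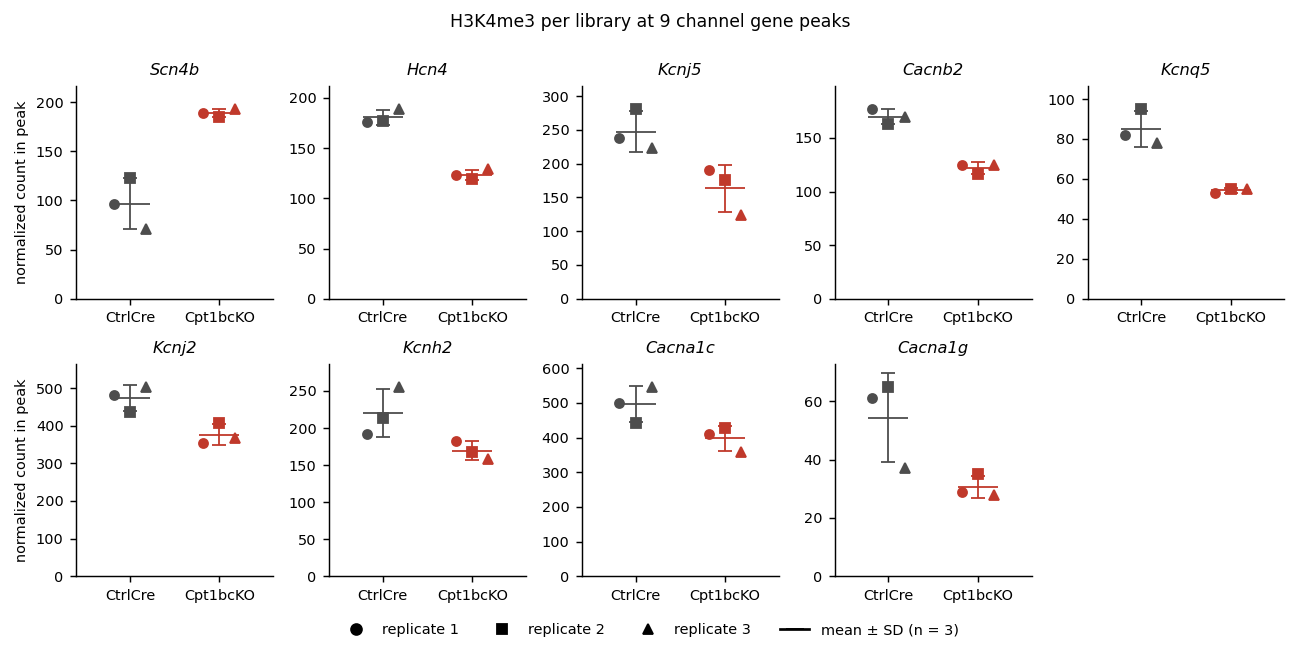
Normalized counts per library (points) with mean ± SD (n = 3) at 9 channel peaks, each with its own axis from 0. Top row, the 5 peaks with an adjusted p under 0.05; bottom row, 4 with an unadjusted p under 0.05 and no overlap. Scn4b is higher in all 3 Cpt1bcKO libraries and the other 8 are lower in all 3.

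Among the voltage-gated potassium channels, which end the action potential, 20 peaks were tested, 5 of them lower and 2 higher at an unadjusted p under 0.05, against 6.98% and 5.84% of all tested peaks. Kcnh2, the pore of the rapid delayed rectifier, had 192, 214 and 256 against 183, 168 and 158 (log2 difference -0.37, SE 0.11, limma adjusted p = 0.0905). These did not overlap between genotypes, though the nearest values, 192 and 183, were close. Kcna4, a subunit of the slow transient outward current, had 110, 109 and 91 against 76, 79 and 87, also apart (log2 difference -0.35, SE 0.14, limma adjusted p = 0.275). Kcng2, the strongest channel peak, had 528, 530 and 594 against 480, 446 and 420, also apart (log2 difference -0.29, SE 0.10, limma adjusted p = 0.127).

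The fast transient outward and slow delayed rectifier genes overlapped more. Kcnd2 had 194, 235 and 178 in CtrlCre and 190, 172 and 194 in Cpt1bcKO, a log2 difference of -0.12 (95% interval -0.35 to 0.11). Kcnd3, the other pore of this current, had 144, 116 and 155 against 144, 121 and 157, a difference of 0.03 (95% interval -0.24 to 0.30). Kcnip2 had 226, 225 and 240 against 197, 201 and 214, which do not overlap, with a difference of -0.17 (95% interval -0.38 to 0.03). Kcnq1 had 233, 209 and 171 against 181, 179 and 186, a difference of -0.15 (95% interval -0.39 to 0.08). Kcna7 had a difference of -0.12 (95% interval -0.55 to 0.31) and Kcnab2, an auxiliary subunit whose peak contains the start of Nphp4, 0.53 (95% interval -0.20 to 1.25). Kcnc1, a fast-spiking channel and 1 of the 2 higher at an unadjusted p under 0.05, had 31, 51 and 39 against 47, 52 and 71, which overlap.

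Among the background and calcium-activated potassium channels, Kcnk3 had 272, 277 and 273 in CtrlCre and 285, 249 and 269 in Cpt1bcKO, the control values lying within 5 of each other, with a log2 difference of -0.04 (95% interval -0.23 to 0.16). Kcnn2 had 236, 219 and 172 against 189, 206 and 183, a difference of -0.11 (95% interval -0.34 to 0.13). None of the 7 two-pore and 3 calcium-activated channel peaks tested had an unadjusted p under 0.05. Of all tested peaks 6.98% were lower and 5.84% higher at that threshold. Most two-pore peaks were weak, and Kcnk6 had 32, 42 and 31 against 26, 23 and 30, which do not overlap. Of the other ventricular and atrial genes, Kcne3 had a difference of 0.11 (95% interval -0.74 to 0.95) and Kcnj8 of -0.01 (95% interval -0.76 to 0.75), intervals too wide to tell a direction.

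**Figure D5:**
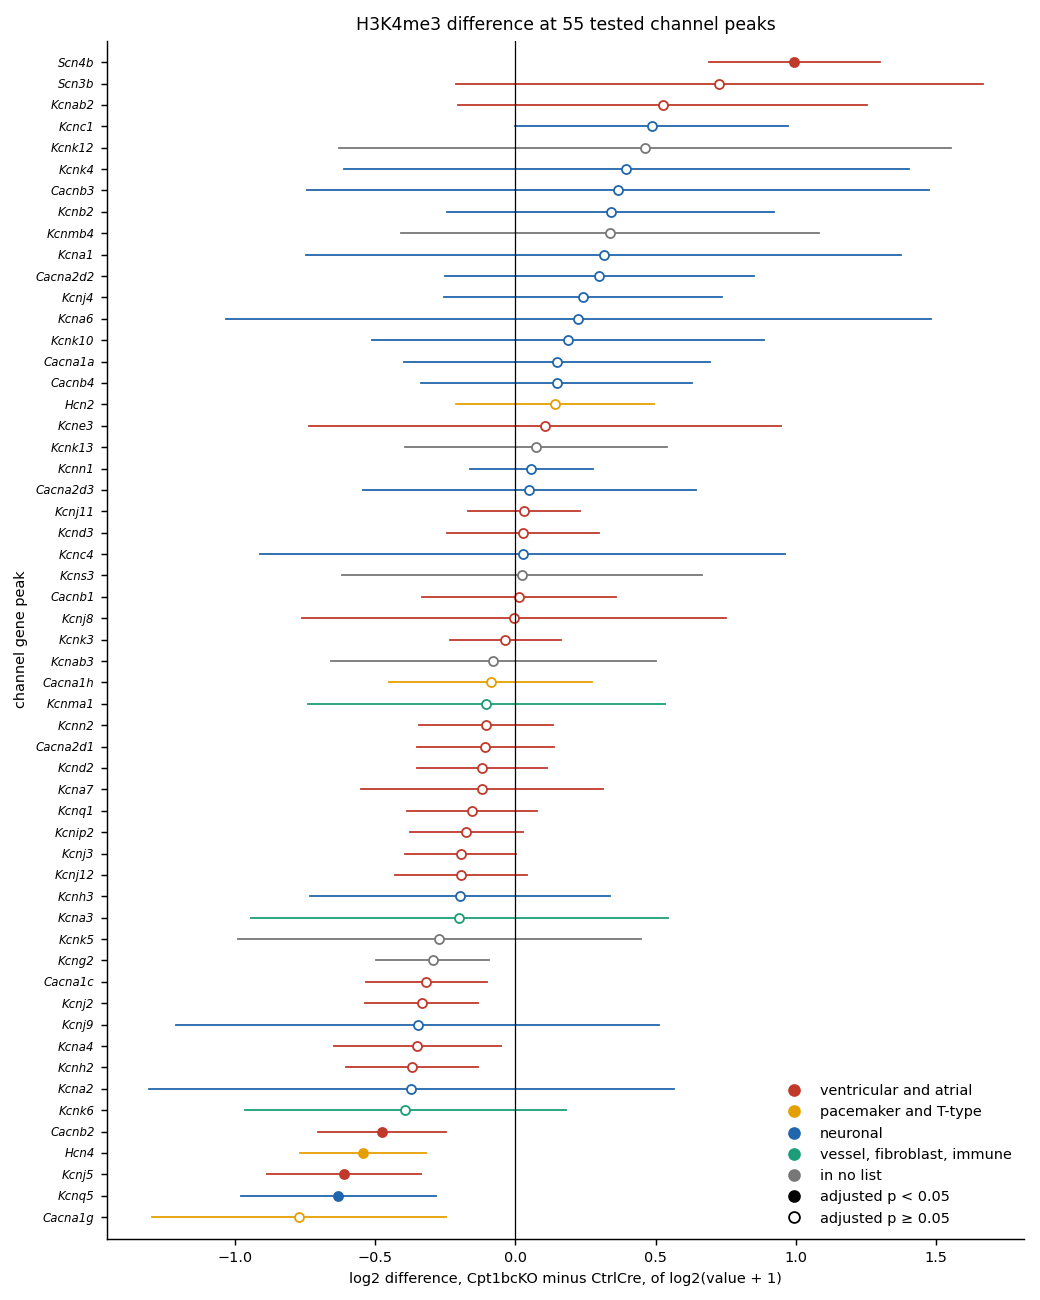
Log2 difference (Cpt1bcKO minus CtrlCre) of 55 of the 61 tested channel peaks with its 95% interval, unadjusted for the number of peaks and coloured by gene list. Filled points have an adjusted p under 0.05. Scn4b is at the top at 0.99, the 4 filled points below 0 are Cacnb2, Hcn4, Kcnj5 and Kcnq5, and the neuronal channels mostly lie above 0 with wide intervals.

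The lower values were mostly at strong peaks. Of the 31 channel peaks with a mean of at least 50, 10 (32.3%) were lower at an unadjusted p under 0.05, against 6.23% of all tested peaks at this level. Of the 30 weaker ones 1 was lower, against 8.80% of all tested peaks at that level. Their median SE was 0.35, against 0.12 in the strong channel peaks. Over all tested peaks the median SE was 0.34 under a mean of 50 and 0.12 from 50 up. A difference of the same size is harder to see in weak peaks of either set, and the part of this in the counts was not tested. Of the 22 broad channel peaks 7 (31.8%) were lower, against 11.4% of all broad peaks. By list, 7 of 26 ventricular and atrial genes and 2 of 5 pacemaker and T-type genes were lower at an unadjusted p under 0.05. The same held for 1 of 19 neuronal genes and 0 of 5 vessel, fibroblast and immune genes. Kcnj8 and Kcne3 are counted both there and among the ventricular and atrial genes. Of all tested peaks 6.98% were lower. The medians of the 4 lists, in this order, were -0.11, -0.54, 0.15 and -0.10 on the log2 scale. Most neuronal peaks are weak, the class in which Cpt1bcKO replicate 3 had high values (above), and the part of that library in the positive median of this list was not tested. Of the CM markers, which are broad throughout, 1 of 10 fell by the adjusted test (Actc1, cardiac actin), which 2.93% of all tested peaks passed. The unadjusted test found 4 of the 10 lower and 1 higher, against 6.98% and 5.84% of all tested peaks. Of all broad peaks 11.4% were lower. The higher marker was Mybpc3, with 661, 760 and 690 in CtrlCre and 791, 966 and 777 in Cpt1bcKO, which do not overlap. Its log2 difference was 0.26 (limma adjusted p = 0.299). Of these 10 markers 8 had a negative difference, and their median was -0.22. Neither the lists, which were chosen with earlier results of these data known, nor the levels were tested against each other.

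Not tested, with means under 10, were 4 channel peaks. Cacng6, a calcium channel γ subunit, had 9, 14 and 10 in CtrlCre and 5, 3 and 0 in Cpt1bcKO, and Kcnc2, a fast-spiking channel, 5, 7 and 7 against 9, 12 and 12. Neither overlapped, in opposite directions, at values near the floor of 3 counts, which is worth 1.95 to 6.97 depending on the library. Kcnk1 had 3, 9 and 9 against 5, 9 and 15, and Kcns2 4, 7 and 2 against 3, 3 and 12, and both overlapped.

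Inside the channel genes lay 17 further peaks to which the table gives no gene at all, in 15 genes, 5 of them over another annotated start. Of the 15 that were tested, 3 were lower and 1 higher at an unadjusted p under 0.05, where 6.98% of all tested peaks were lower and 5.84% higher, and their median log2 difference was -0.15. The higher one, over another start of Kcnn1, had 21, 21 and 26 in CtrlCre and 29, 42 and 39 in Cpt1bcKO, while the named Kcnn1 peak had 167, 188 and 161 against 175, 173 and 188. An unassigned peak of Kcnn2, at another start, was denser than any named channel peak, at 104 per kb, with 244, 258 and 274 against 283, 272 and 319. These were named after their values were seen.

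A further 7 peaks inside 6 channel genes are given in the table to noncoding genes or pseudogenes that lie there, and all were tested; their names come from vM21 by gene ID. Of these 1 rose by the adjusted test and another was lower by the unadjusted one. Of all tested peaks 2.93% passed the adjusted test, and 6.98% were lower and 5.84% higher by the unadjusted one. The peak that rose is that of Kcnq1ot1 (ENSMUSG00000101609), a noncoding RNA transcribed antisense to Kcnq1 from within the gene and known for imprinting of its neighbours. It lies at chr7:143294019-143296983 and had 106, 95 and 128 in CtrlCre and 177, 210 and 189 in Cpt1bcKO, which do not overlap (log2 difference 0.81, SE 0.12, limma adjusted p = 0.000329). The peak at the Kcnq1 start had a difference of -0.15 (above). The lower one lies over another start of Kcnh2, near an antisense gene, and had 93, 53 and 91 against 57, 42 and 35, which overlap (log2 difference -0.79, SE 0.23, limma adjusted p = 0.0629). Both were named after their values were seen.

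The list of genes that work with the channels held 52 symbols. They cover calcium release and uptake, ion pumps, gap junctions, scaffolds and conduction transcription factors. Mog1 and Rangrf on it are names of the same gene. The list had 43 tested peaks. Of these 4 fell and 1 rose by the adjusted test, and 10 were lower and 2 higher at an unadjusted p under 0.05, with a median log2 difference of -0.06. Of all tested peaks 2.93% passed the adjusted test, and 6.98% were lower and 5.84% higher by the unadjusted one. The strongest were Nkx2-5 (1060 normalized counts, mean of 6 libraries), a cardiac transcription factor, Popdc2, a cyclic AMP binding protein of conduction, and Pln, the brake of the calcium pump. Named after their values were seen, Abcc9, the sulfonylurea receptor that pairs with the ATP-sensitive channels, had 201, 174 and 175 in CtrlCre and 125, 146 and 107 in Cpt1bcKO (log2 difference -0.55, limma adjusted p = 0.0127). Gjc1, connexin 45 of the pacemaker region, had 146, 139 and 139 against 99, 97 and 104 (log2 difference -0.50, limma adjusted p = 0.0210). Tbx5 and Trdn also fell, and Popdc3 rose, with 137, 128 and 148 against 176, 197 and 180. In these 5 genes the genotypes did not overlap.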

How the data were processed

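H3K4me3 ChIP–seq had been carried out on sorted CM nuclei of both genotypes, and inputs, listed for both, had no columns in the table. Per the labels and the methods, the authors trimmed reads with Trimmomatic 0.39, aligned them to mm10 with STAR 2.6.1d (unique, unspliced), removed duplicates with Picard 2.21.7, called peaks per library against input with MUSIC, merged them and normalized the reads in each union peak with DESeq2 1.26.0. The deposited value per library is such a normalized count rounded to a whole number, treated here as a score; the genotype means are an unrounded signal computed by the authors. Their fold changes and p-values were not used. Each peak had been given the gene whose promoter lay nearest, up to 5000 bases away.

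Peaks with a mean of at least 10 (15039) were tested with limma 3.58.1 in R 4.3.3 (lmFit, eBayes with a trend, genotype alone) on log2(value + 1), two-sided, with Benjamini-Hochberg adjustment over all tested peaks. The log2(value + 1) scale understates differences of low peaks. Titles gave genotype and replicate; the study describes its replicates as biological, but no label ties a library to an animal, so p-values measure the spread between these samples. Whole counts were recovered for 15848 of 15848 peaks from the rounded values and unrounded means; floors cover counting error only. On simulated counts with the depths of this comparison (15039 peaks), 43.3%, 83.6% and 89.4% of peaks changed 1.5-, 2- and 3-fold were recovered. The simulation gave every peak the same spread beyond counting error and held no shifts of single libraries. These shares need not hold for the real counts. Named were all peaks with an adjusted p under 0.05, the next 5 by p in each direction without overlap, the 10 densest and 5 widest, the tested ventricular, atrial, pacemaker and T-type genes, and of other lists the 3 strongest; the members and lists were chosen with earlier results of these data known. Some members are not reported here by name or drawn; they stay in the counts.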

Additional observations from a re-analysis of the deposited data

How the results depend on the processing

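The count of 5 channel peaks called by the adjusted test stayed within 1.5 times under other pseudocounts, filters and normalizations, with 5 to 7 called. It was 2 to 6 when libraries were left out, 14 at an unadjusted p under 0.05, and 0 with eBayes without a trend in limma, where at an unadjusted p under 0.05 there were 12 lower and 1 higher; limma-voom on the recovered counts called 6. Scn4b and Hcn4 passed in each alternative but eBayes without a trend (adjusted p 0.117 and 0.0913), while Kcnj2 and Cacna1c passed under quantile and cyclic loess normalization. With the replicate number as a block, 4 were called (Kcnq5 lost, adjusted p 0.0670), 11 had a lower value with an unadjusted p under 0.05, and the median log2 difference stayed at -0.05 (the samples share only a number, as same-numbered samples did not deviate together, with correlations of 0.08, -0.08 and 0.11). That count of lower peaks was 10 to 14 without single libraries, and the median log2 difference was -0.17 to 0.02. Cyclic loess normalization and the joint removal of CtrlCre replicate 2 and Cpt1bcKO replicate 3 were added after seeing the data. No called peak changed sign in any of 17 alternatives. Of the 28 genes so examined, 8 did so in 1 or more: without libraries, Cacnb1 ranged from -0.21 to 0.14, Kcna7 from -0.27 to 0.054, Kcnab2 from -0.29 to 0.88, Kcnd3 from -0.18 to 0.13, Kcne3 from -0.15 to 0.29, Kcnj11 from -0.043 to 0.082, Kcnj8 from -0.38 to 0.35 and Kcnk3 from -0.082 to 0.015. Kcnd3 was at -0.053 by limma-voom, and Kcnj8 at 0.26 by limma-voom, 0.13 by quantile and 0.074 by cyclic loess normalization. The cause of these changes was not tested. On simulated counts with 3 libraries per genotype and the shallow control, differences of 1.5-fold were often missed.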
